A study of Rattus norvegicus with 4 samples.

Results

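The genes described here are 10 that respond to Wnt signalling or mark pericentral hepatocytes, the liver cells around the central vein: Axin2, Rnf43, Znrf3, Lgr5, Tbx3, Lect2, Rgn, Rhbg, Slc1a2 and Slc13a3. They were taken by gene symbol from the deposited table of normalized expression, where they are 10 of 31457 rows. Of the 10, Znrf3 was listed at 0 in all 4 libraries. The other 9 were detected, and all of these but Lgr5 passed a filter on low levels, which left 8 members among 9116 genes kept.

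Poly(A)-selected RNA was sequenced on an Illumina MiSeq from livers of LEWIS rats of the RT1L allotype. Each of 4 groups holds 1 library. The miR-27b liver is the library after partial hepatectomy, in which part of the liver is removed so that the rest regrows, with the cells named ASCs-miR27b. The siRNC liver is the library after hepatectomy with ASCs-siRNC, and the saline liver the library after hepatectomy with saline. All of these were given intravenously. The naive liver is the control called naive in the labels. The labels spell out neither ASCs nor siRNC. The first is taken to mean adipose-derived stem cells and the second a control for miR-27b. The sources used here do not state age, sex, the interval between surgery and collection, or whether a library is 1 animal or a pool. Since a group is a single library, differences between livers are described by their size, with no replicates to check them and no test. An interval below is an exact conditional binomial 95% interval that covers counting error only.

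In the Wnt pathway, a secreted Wnt protein binds a Frizzled receptor and an Lrp co-receptor, which halts the destruction of beta-catenin by a complex built on Axin and Apc. Beta-catenin then enters the nucleus and switches on target genes together with TCF/LEF factors. R-spondins strengthen the signal through Lgr receptors by keeping the ubiquitin ligases Rnf43 and Znrf3 from removing Frizzled. In the liver, endothelial cells of the central vein are a known source of Wnt and R-spondin, and the hepatocytes next to the vein carry a programme of glutamine synthesis, ammonia and glutamate uptake, bile acid synthesis and drug metabolism. Hepatocytes near the portal vein carry a complementary programme of urea and glucose production.

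Promoter sequences are shown for 4 members that lie on different sides of the expression results, Axin2 and Rnf43 (highest in the naive liver), Slc13a3 (lowest there) and Lect2 (nearly level). They are the 250 bases before the gene start from RefSeq, build GRCr8, on the gene's own strand, 5′ to 3′. Capitals mark the TCF/LEF core motif CTTTGAT, read as ATCAAAG from the other strand, or its shorter part CTTTG, whose other-strand reading is CAAAG. The shorter motif lies within the longer one, so a match of the longer is also one of the shorter. Axin2 is at chr10:94398535-94398784 on the plus strand, Rnf43 at chr10:72963116-72963365 on the plus strand, Lect2 at chr17:8049784-8050033 on the plus strand and Slc13a3 at chr3:174623894-174624143 on the minus strand.
Axin2: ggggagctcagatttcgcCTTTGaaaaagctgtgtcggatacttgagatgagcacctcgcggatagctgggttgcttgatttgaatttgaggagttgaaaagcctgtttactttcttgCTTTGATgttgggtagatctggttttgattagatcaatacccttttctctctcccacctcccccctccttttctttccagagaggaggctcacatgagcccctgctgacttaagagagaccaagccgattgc
Rnf43: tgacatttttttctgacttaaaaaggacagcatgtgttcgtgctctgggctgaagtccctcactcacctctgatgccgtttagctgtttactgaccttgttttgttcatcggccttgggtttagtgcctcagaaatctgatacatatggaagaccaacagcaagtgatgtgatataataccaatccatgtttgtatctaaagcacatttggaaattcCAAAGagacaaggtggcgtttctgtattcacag
Lect2: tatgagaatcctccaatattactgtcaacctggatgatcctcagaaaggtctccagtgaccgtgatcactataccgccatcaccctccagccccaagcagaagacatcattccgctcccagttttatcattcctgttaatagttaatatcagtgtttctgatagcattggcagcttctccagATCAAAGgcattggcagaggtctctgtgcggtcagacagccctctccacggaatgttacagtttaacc
Slc13a3: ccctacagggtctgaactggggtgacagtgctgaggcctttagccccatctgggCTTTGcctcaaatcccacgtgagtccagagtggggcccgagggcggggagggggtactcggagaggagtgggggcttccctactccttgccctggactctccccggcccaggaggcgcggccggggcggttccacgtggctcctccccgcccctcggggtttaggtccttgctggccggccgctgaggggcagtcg

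The reference table held promoters of 7 of the 10 members. The longer motif was found in 3 of the 7, in Axin2 starting 132 bases before the gene start, in Lect2 68 bases before it on the other strand, and in the second of 2 promoter entries of Slc1a2, the glial-type glutamate transporter, 189 bases before it. It occurs in 3.15% of all 33469 promoters of the table. The shorter motif was found in 5 of the 7 members, against 48.2% of all promoters. Both shares are over single promoter entries, whereas a member counts if any of its entries holds a match, which favours the members. Rhbg and Rgn held neither in this window. These matches are letters in a window and were not tested for binding. In the sequences above, Axin2 holds 1 further match of the shorter motif 232 bases before the gene start, Rnf43 has its match 33 bases and Slc13a3 196 bases before it.

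Among the members kept, the Wnt feedback genes and Tbx3 were lower in all 3 hepatectomised livers than in the naive liver. The transporters Slc1a2 and Slc13a3 were higher in all 3, at less than 2-fold, and Lect2 was nearly level. In both livers given cells, Rgn was higher than in the saline and naive livers, at less than 1.5-fold, and Rhbg was lower. The share of all genes kept that split into these pairs was not counted. A deposited value is a log2 level relative to a baseline of that gene, near the median of the 4 libraries, so values show differences within a gene and not which gene is more abundant. At the baseline, Axin2, Tbx3, Rhbg and Slc1a2 were placed in a lower class that starts at 16 normalized reads. Rnf43, Lect2, Rgn and Slc13a3 were placed, with a probability of 0.666, in an upper class that starts at 16 times as many. Intervals are given with the baseline at 16 reads, the widest these classes allow. For members of the upper class an interval at the start of that class is also given, called the upper placing.

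**Figure D1:**
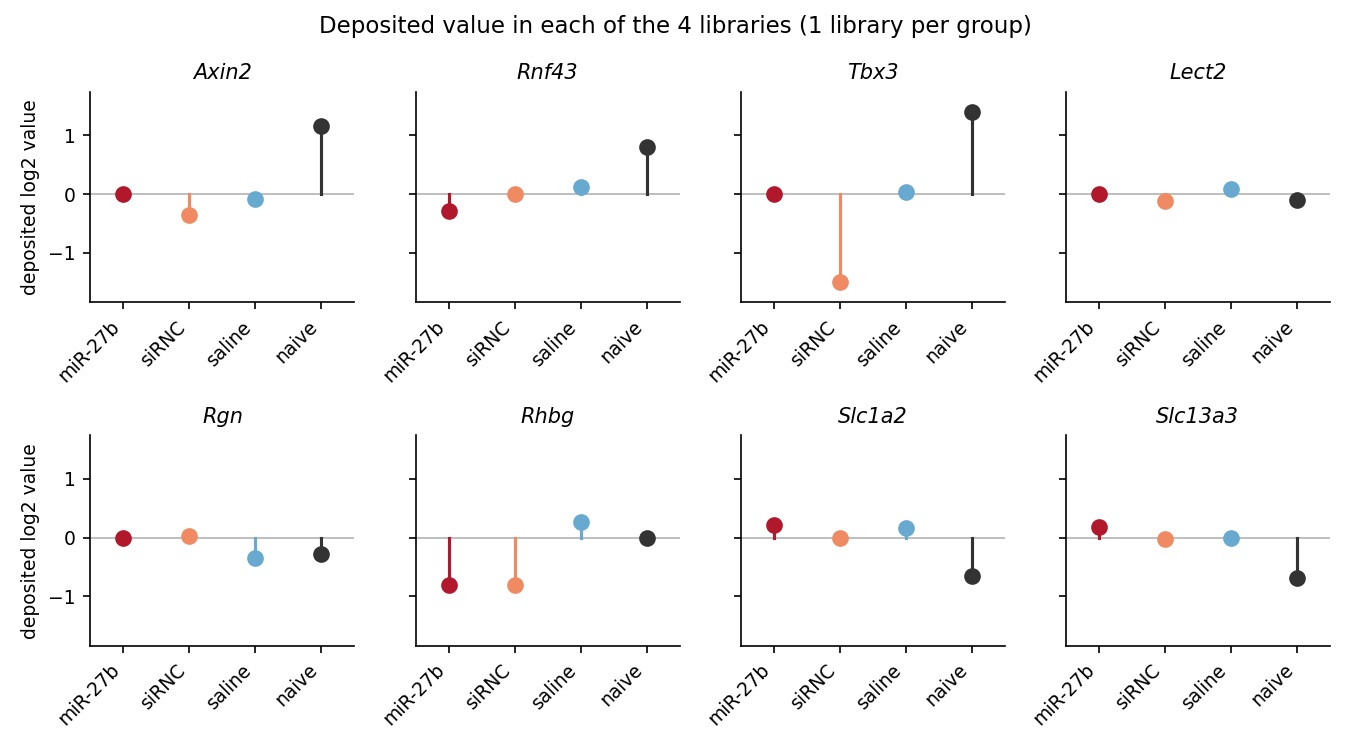
Deposited log2 value (vertical axis, relative to each gene's baseline at 0) of the 8 members kept, in the miR-27b, siRNC, saline and naive livers (horizontal axis), 1 point per library with a line to 0. The naive point is the highest for Axin2, Rnf43 and Tbx3 and the lowest for Slc1a2 and Slc13a3, and Tbx3 in the siRNC liver is the lowest point, at -1.50.

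Axin2 (gene ID 29134), a scaffold of the beta-catenin destruction complex and a direct Wnt target in most tissues, had a deposited log2 value of 0 in the miR-27b, -0.35 in the siRNC and -0.09 in the saline liver, against 1.15 in the naive liver. The naive liver stood alone at the top and the 3 hepatectomised livers lay within 0.35 of each other. Axin2 was 2.23-fold lower in the miR-27b than in the naive liver (log2 fold -1.15, interval -2.17 to -0.28). It was 2.84-fold lower in the siRNC liver (-1.50, interval -2.51 to -0.52) and 2.37-fold lower in the saline liver (-1.25, interval -2.17 to -0.33). All 3 intervals exclude 0. Between the hepatectomised livers, the log2 fold was 0.35 for miR-27b against siRNC, 0.09 for miR-27b against saline and -0.26 for siRNC against saline, all with intervals that include 0.

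Rnf43 (gene ID 303412), the ubiquitin ligase that removes Frizzled receptors and is itself a Wnt target, had values of -0.29 in the miR-27b, 0 in the siRNC and 0.12 in the saline liver, against 0.80 in the naive liver. The naive liver was again highest. The log2 fold against naive was -1.09 in the miR-27b liver (interval -2.25 to -0.11 at 16 reads, -1.34 to -0.84 at the upper placing). It was -0.80 in the siRNC liver, with an interval of -1.79 to 0.15 at 16 reads and of -1.03 to -0.57 at the upper placing. In the saline liver it was -0.67, with an interval of -1.62 to 0.24 at 16 reads and of -0.90 to -0.46 at the upper placing. Only the miR-27b difference was therefore outside counting error at both placings. Rnf43 was lower in the miR-27b liver than in the siRNC liver by a log2 fold of -0.29 and than in the saline liver by -0.42, intervals that exclude 0 at the upper placing (-0.56 to -0.017 and -0.68 to -0.15) and include it at 16. Znrf3 (gene ID 685487), the paralog of Rnf43 with the same role, was listed at 0 in all 4 libraries, so the pair could not be compared.

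Lgr5 (gene ID 299802), an R-spondin receptor and a Wnt target of stem cells and of hepatocytes at the central vein, had 0 reads in the miR-27b, 4 in the siRNC and 2 in the saline liver, against 0 in the naive liver. A count of 0 allows up to 3 reads, so no difference in Lgr5 was detectable at this depth.

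Tbx3 (gene ID 353305), a T-box transcriptional repressor of pericentral hepatocytes, had the widest range of the members, 2.89 on the log2 scale. Its deposited value was 0 in the miR-27b, -1.50 in the siRNC and 0.03 in the saline liver, against 1.39 in the naive liver. The naive liver was highest, the miR-27b and saline livers lay together, and the siRNC liver lay below both. Against naive, Tbx3 was 2.62-fold lower in the miR-27b liver (log2 fold -1.39, interval -2.38 to -0.54), 7.41-fold lower in the siRNC liver (-2.89, interval -4.34 to -1.57) and 2.57-fold lower in the saline liver (-1.36, interval -2.27 to -0.51). Of the 9116 genes kept, 14 had a lower log2 fold against naive in the siRNC liver than Tbx3.

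The gap of the siRNC liver from the other hepatectomised livers was at the edge of counting error for Tbx3. The log2 fold was 1.5 for miR-27b against siRNC (interval -0.053 to 3.05), -0.03 for miR-27b against saline (interval -1.17 to 1.03) and -1.53 for siRNC against saline (interval -3.09 to -0.044). These intervals hold at a baseline of 16 reads and narrow with a higher one. The siRNC library enters both of the large differences, so they are not separate observations. The siRNC liver also stood apart in part of the stellate cell and matrix markers, of which 9 of 10 were kept. In miR-27b against siRNC 0 were at least 2-fold higher (2.54% of all genes) and 4 lower (2.11%), with 4 above 0 and 5 below (median log2 fold -0.12). In siRNC against saline 5 were higher (2.03%) and 0 lower (1.49%), with a median of 1.09. In miR-27b against saline 2 were higher, Acta2 and Tagln (1.99%), and 0 lower (1.62%), with a median of 0.53. These 2 were highest in the miR-27b liver, at 1.10 and 0.97, against 0.23 and 0.64 in the siRNC liver. The gene of lumican, Lum, a proteoglycan that binds collagen fibrils, had 4 reads in the miR-27b, 82 in the siRNC and 3 in the saline liver, against 4 in the naive liver. Lum passed the filter, a mean of at least 10 reads, only through the siRNC library, so its difference is partly built in. It is among the 5 higher and the 4 lower markers counted above. The part of these cells in the Tbx3 gap was not tested.

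Lect2 (gene ID 361205), a secreted chemotactic protein of hepatocytes that is a beta-catenin target in mouse liver, had values of 0 in the miR-27b, -0.12 in the siRNC and 0.09 in the saline liver, against -0.10 in the naive liver. Its 4 values spanned 0.21, the narrowest range of the members. The log2 fold against naive was 0.10 in the miR-27b liver (interval -0.17 to 0.36 at the upper placing), -0.03 in the siRNC liver (-0.30 to 0.24) and 0.19 in the saline liver (-0.07 to 0.44). These intervals, all at the upper placing, exclude a 2-fold difference in either direction. At 16 reads they reach past it.

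Rgn (gene ID 25106), which encodes regucalcin, a calcium-binding gluconolactonase of hepatocytes, had values of 0 in the miR-27b, 0.03 in the siRNC and -0.35 in the saline liver, against -0.29 in the naive liver. Here the livers fell into the pair that had received cells, above, and the pair that had not, below. The log2 fold was 0.35 for miR-27b against saline (interval 0.077 to 0.62 at the upper placing) and 0.38 for siRNC against saline (interval 0.11 to 0.65 at the upper placing). It was 0.29 for miR-27b against naive (interval 0.015 to 0.56 at the upper placing), 0.32 for siRNC against naive (interval 0.049 to 0.59 at the upper placing) and -0.06 for saline against naive. At 16 reads all of these intervals include 0, and none of the differences reaches 1.5-fold.

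Rhbg (gene ID 310625), a membrane channel for ammonia in the hepatocytes that make glutamine, had values of -0.81 in the miR-27b, -0.80 in the siRNC and 0.26 in the saline liver, against 0 in the naive liver. The livers again fell into the same pairs, but with the sign opposite to Rgn: both livers with cells were the lower ones. The log2 fold was -1.07 for miR-27b against saline (interval -2.35 to 0.17) and -1.06 for siRNC against saline (interval -2.42 to 0.096). Both intervals include 0 at 16 reads, and the saline library enters both differences. Against naive, the log2 fold was -0.81 in the miR-27b liver (interval -2.16 to 0.47), -0.80 in the siRNC liver (interval -2.23 to 0.39) and 0.26 in the saline liver (interval -0.79 to 1.28). The miR-27b and siRNC livers differed by -0.007. How many of all genes kept split into the same pairs was not counted, so the split does not set Rgn or Rhbg apart.

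Slc1a2 (gene ID 29482), which takes up glutamate into pericentral hepatocytes, had values of 0.21 in the miR-27b, 0 in the siRNC and 0.17 in the saline liver, against -0.65 in the naive liver. Slc13a3 (gene ID 64846), a sodium-coupled carrier of dicarboxylates such as succinate, had values of 0.18 in the miR-27b, -0.02 in the siRNC and 0 in the saline liver, against -0.70 in the naive liver. For both transporters the naive liver was lowest, and the order of the 4 livers was the same, miR-27b, saline, siRNC and naive from high to low. The log2 fold of Slc1a2 against naive was 0.87 in the miR-27b liver (interval -0.31 to 2.16), 0.65 in the siRNC liver (-0.59 to 1.94) and 0.82 in the saline liver (-0.34 to 2.10), so each lay within counting error at 16 reads. That of Slc13a3 was 0.88 in the miR-27b liver (interval 0.59 to 1.18 at the upper placing), 0.67 in the siRNC liver (0.39 to 0.98) and 0.70 in the saline liver (0.41 to 1.0), and its intervals at 16 reads include 0. The 3 hepatectomised livers lay within 0.21 of each other for Slc1a2 and within 0.20 for Slc13a3. Neither transporter was 2-fold apart in any of the 6 comparisons.

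**Figure D2:**
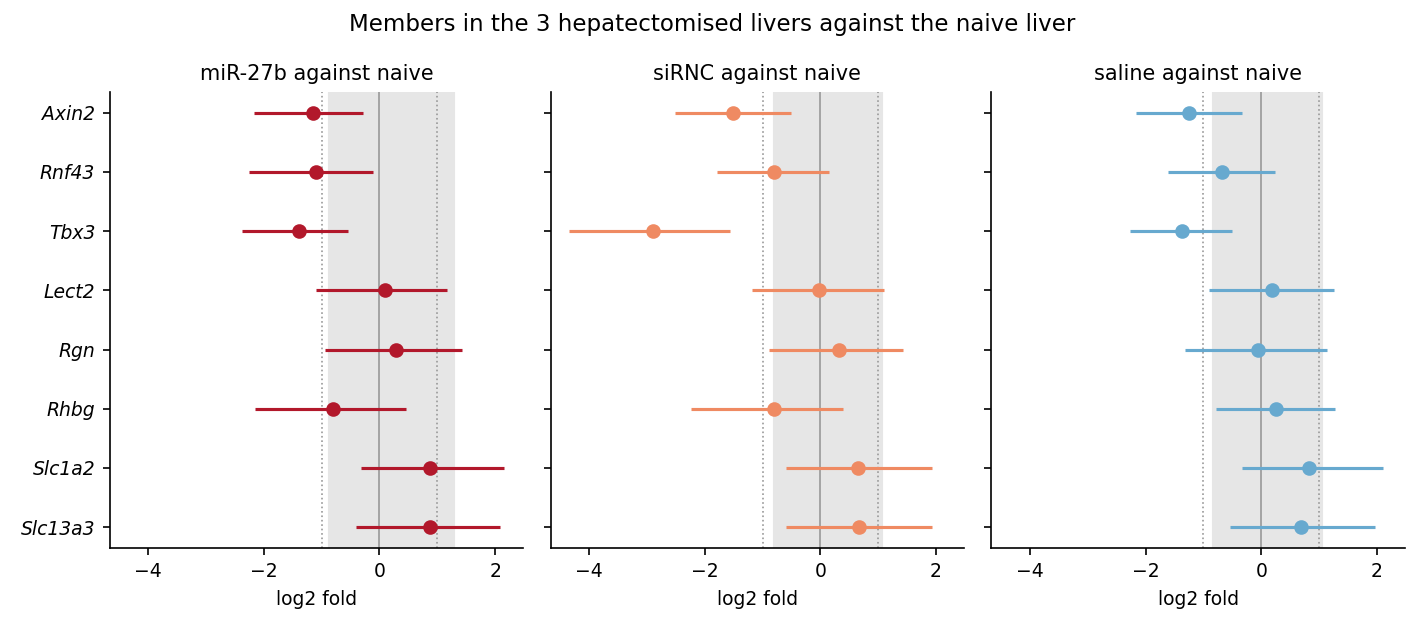
Log2 fold (horizontal axis) of the 8 members kept (rows) in the miR-27b, siRNC and saline livers, each against the naive liver. Points are single-library differences, bars the 95% counting interval with the baseline at 16 reads, dotted lines 2-fold, and the grey band the central 90% of the 9116 genes kept. Axin2 and Tbx3 lie past 2-fold lower with bars clear of 0 in all 3 panels.

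Set against all genes, 3 of the 8 members kept (Axin2, Tbx3 and Rnf43) were lower than naive by 2-fold or more in the miR-27b liver, where 3.57% of the 9116 genes kept were, and 0 were at least 2-fold higher, where 7.69% of all genes were. In the siRNC liver 2 members were at least 2-fold lower than naive (Axin2 and Tbx3), against 3.17% of all genes, and 0 higher, against 5.55%. The saline liver had the same counts as the siRNC liver, 2 lower (Axin2 and Tbx3), against 3.52% of all genes, and 0 higher, against 5.51%. In the miR-27b liver the count was 2 with a pseudocount of 5, where the log2 fold of Axin2 was -0.95, and 1 (Rnf43) under a stricter filter that Axin2 and Tbx3 do not pass. The stricter filter left 0 lower in the siRNC and 0 in the saline liver. The members' median log2 fold was -0.36 in the miR-27b, -0.41 in the siRNC and 0.06 in the saline liver, where the median over all genes was -0.03 in the miR-27b, -0.009 in the siRNC and -0.01 in the saline liver. The negative medians depended on the filter: a stricter one, which left 4 members without Axin2 and Tbx3, gave 0.19 in the miR-27b and 0.15 in the siRNC liver, and no filter, which added Lgr5, gave 0 in the miR-27b and -0.027 in the siRNC liver. All 3 comparisons share the naive library, so the repeats are partly built in. Lying above all 3 hepatectomised livers in the naive liver (3 of 8 members) or below all 3 (2 of 8) was common among all genes kept, at 32.8% and 29.5%. The side of the naive liver alone therefore does not set the members apart.

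Between the hepatectomised livers, 1 of the 8 members was at least 2-fold higher in the miR-27b than in the siRNC liver (Tbx3), where 2.54% of all genes were, and 0 were at least 2-fold lower, against 2.11%. In the miR-27b against the saline liver, 1 member was at least 2-fold lower (Rhbg), against 1.62% of all genes, and 0 higher, against 1.99%. In the siRNC against the saline liver, 2 members were at least 2-fold lower (Tbx3 and Rhbg), against 1.49% of all genes, and 0 higher, against 2.03%. The members' median was 0.16 for miR-27b against siRNC, 0.008 for miR-27b against saline and -0.19 for siRNC against saline, where 7 of 8 members lay below 0. The median over all genes kept was 0.003 for miR-27b against siRNC, -0.001 for miR-27b against saline and -0.008 for siRNC against saline. The range over the 3 hepatectomised livers had a median of 0.367 over the members and of 0.374 over all genes kept, and only Tbx3 (1.53) and Rhbg (1.07) spanned more than 1. These counts rest on members of the lower class: with a pseudocount of 5, miR-27b against siRNC had 0 members at least 2-fold higher, miR-27b against saline 0 lower and siRNC against saline 1 lower, and under the stricter filter all 3 comparisons had 0 in either direction.

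**Figure D3:**
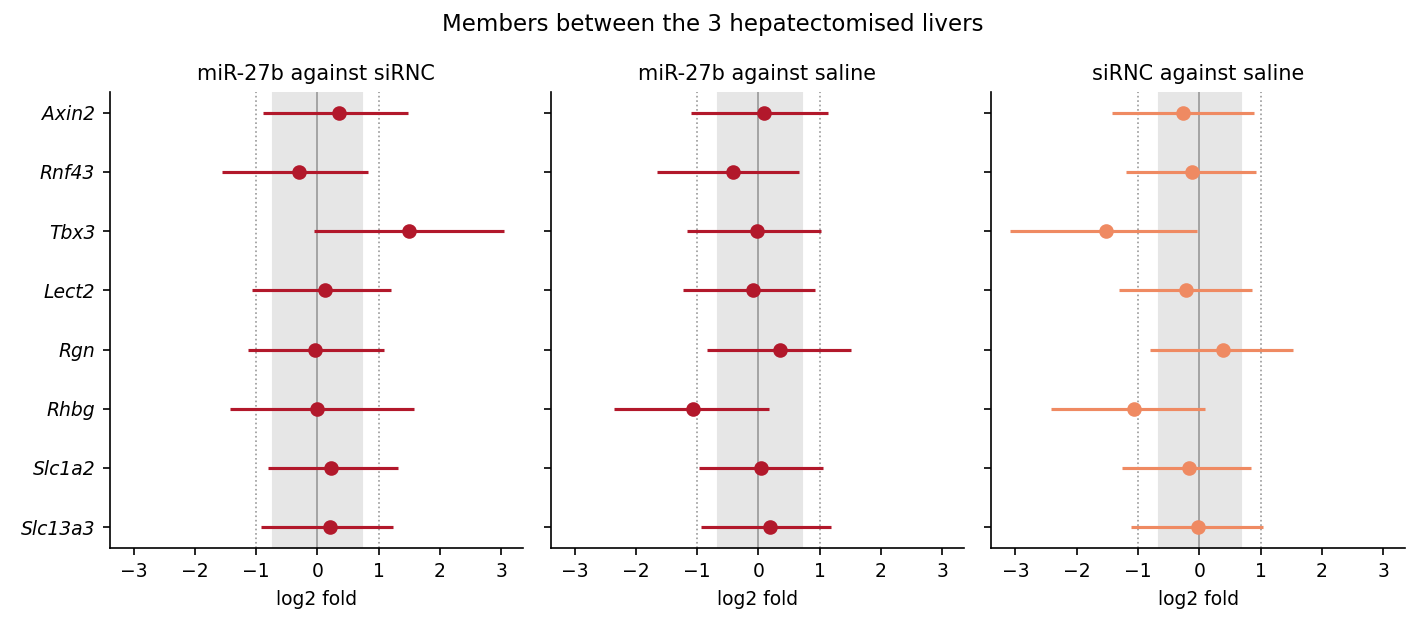
Log2 fold (horizontal axis) of the 8 members kept (rows) between the hepatectomised livers: miR-27b against siRNC, miR-27b against saline and siRNC against saline. Bars are the 95% counting interval with the baseline at 16 reads, dotted lines 2-fold, and the grey band the central 90% of the 9116 genes kept. Tbx3 and Rhbg are the points past 2-fold, and the bar of Tbx3 in siRNC against saline ends just below 0, at -0.044.

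Upstream of the members, no Wnt ligand or R-spondin passed the filter. Of 14 Wnt ligands, R-spondins and their secretion factors, 5 were listed at 0 in all libraries, among them Wnt2, a Wnt of liver endothelial cells, and 1 passed the filter. That gene was Wls, the carrier that brings Wnt proteins to the cell surface, with a log2 fold against naive of 1.51 in the miR-27b, 1.28 in the siRNC and 0.64 in the saline liver. Wnt9b, a Wnt of the central vein, had 13 reads in the miR-27b, 5 in the siRNC and 7 in the saline liver, against 6 in the naive liver. Rspo3, the R-spondin of the central vein, could not be placed in a level class and so did not pass the filter. It had values of 0.35 in the miR-27b, -0.77 in the siRNC and -0.60 in the saline liver, against 0.18 in the naive liver.

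Receptors were measured better, with 8 of 15 kept. Of these 1, Fzd6, was at least 2-fold higher than naive in each hepatectomised liver and 0 were lower. Of all genes kept, 7.69% were that much higher in the miR-27b, 5.55% in the siRNC and 5.51% in the saline liver. The shares lower were 3.57% in the miR-27b, 3.17% in the siRNC and 3.52% in the saline liver. Fzd6 had 48 reads in the miR-27b, 48 in the siRNC and 49 in the saline liver, against 16 in the naive liver. The co-receptor Lrp6 had values of -0.004 in the miR-27b, -0.25 in the siRNC and 0.16 in the saline liver, against 0.29 in the naive liver. The R-spondin receptor Lgr4, a relative of Lgr5, had values of 0 in the miR-27b, 0.28 in the siRNC and 0.06 in the saline liver, against -0.06 in the naive liver. The medians of the receptors against naive were -0.13 in the miR-27b, -0.05 in the siRNC and -0.21 in the saline liver.

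Of the 23 genes of the intracellular core, 20 were kept. Ctnnb1, which encodes beta-catenin, differed little: its value was 0.15 in the miR-27b, 0.01 in the siRNC and -0.06 in the saline liver, against -0.12 in the naive liver. The destruction complex genes Axin1 and Apc were highest in the naive liver. Axin1 had values of -0.08 in the miR-27b, -0.05 in the siRNC and 0.23 in the saline liver, against 0.55 in the naive liver. Apc had values of -0.19 in the miR-27b, -0.01 in the siRNC and 0 in the saline liver, against 0.32 in the naive liver. Axin1 thus showed the same side as its paralog Axin2, at less than 2-fold. At least 2-fold lower than naive were 2 core genes in the miR-27b liver (Dvl3, a transducer downstream of Frizzled, and Amer1, a membrane scaffold of the destruction complex), 0 in the siRNC liver and 1 in the saline liver (Amer1). None was at least 2-fold higher. Of all genes kept, 3.57% were that much lower in the miR-27b, 3.17% in the siRNC and 3.52% in the saline liver. The shares higher were 7.69% in the miR-27b, 5.55% in the siRNC and 5.51% in the saline liver. The core medians against naive were -0.32 in the miR-27b, -0.23 in the siRNC and -0.39 in the saline liver. The TCF factor Tcf7l2 was the 1 core gene 2-fold apart between hepatectomised livers, with values of -0.34 in the miR-27b, 0.70 in the siRNC and -0.28 in the saline liver, against 0.26 in the naive liver. Its siRNC value was the highest of the 4, where that of Tbx3 was the lowest. In miR-27b against siRNC, where Tcf7l2 was counted, 2.11% of all genes kept were at least 2-fold lower.

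Of 18 secreted or nuclear Wnt inhibitors, 3 were kept and 7 were listed at 0 in all libraries. Notum, a secreted enzyme that inactivates Wnt proteins and is also a Wnt target, resembled the feedback members, with values of -0.40 in the miR-27b, -0.62 in the siRNC and 0 in the saline liver, against 0.57 in the naive liver. Tle3, a co-repressor of TCF factors, was at least 2-fold lower than naive in each hepatectomised liver, at log2 folds of -1.04 in the miR-27b, -1.58 in the siRNC and -1.67 in the saline liver. Other reported Wnt targets went both ways, with 3 of 12 kept, Notum among them. Ccnd1, which encodes cyclin D1, had a log2 fold against naive of -2.50 in the miR-27b, -2.01 in the siRNC and -0.73 in the saline liver. Myc, a growth-promoting transcription factor, had one of 1.32 in the miR-27b, 0.96 in the siRNC and 1.08 in the saline liver. Genes reported as Wnt targets therefore did not share a single direction.

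The wider pericentral programme had little common shift. Of 21 further pericentral genes 20 were kept, and their median against naive was 0.04 in the miR-27b, -0.25 in the siRNC and -0.15 in the saline liver. In the miR-27b liver 2 were at least 2-fold higher than naive (Cyp7a1 and Por) and 2 lower (Oat and Nr1i3). In the siRNC liver 2 were higher (Cyp7a1 and Por) and 2 lower (Avpr1a and Nr1i3), and in the saline liver 1 was higher (Por) and 0 lower. Of all genes kept, 7.69% were at least 2-fold higher in the miR-27b, 5.55% in the siRNC and 5.51% in the saline liver. The shares lower were 3.57% in the miR-27b, 3.17% in the siRNC and 3.52% in the saline liver. Glul, the glutamine synthetase of the cells next to the central vein and the best known beta-catenin target there, had values of -0.16 in the miR-27b, 0.003 in the siRNC and 0 in the saline liver, against -0.05 in the naive liver. Glul thus spanned little, like Lect2, where Axin2 and Tbx3 were lower in every hepatectomised liver.

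Other pericentral enzymes differed more. Cyp2e1, an ethanol-oxidising cytochrome P450, had values of -0.47 in the miR-27b, -0.31 in the siRNC and 0.20 in the saline liver, against 0 in the naive liver. Like Rhbg, it was lower in both livers with cells than in the saline and naive livers, a split not counted over all genes. Oat, which encodes ornithine aminotransferase, had values of -0.61 in the miR-27b, -0.06 in the siRNC and 0 in the saline liver, against 0.43 in the naive liver. Cyp1a2, a drug-metabolising P450, had values of 0.34 in the miR-27b, -0.27 in the siRNC and 0 in the saline liver, against -0.44 in the naive liver. Cyp7a1, which catalyses the first step of the classic pathway of bile acids, had values of 0.12 in the miR-27b, 0.78 in the siRNC and -1.50 in the saline liver, against -1.90 in the naive liver. Por, the electron donor of the P450 enzymes, was lowest in the naive liver, with log2 folds of 1.78 in the miR-27b, 1.28 in the siRNC and 2.23 in the saline liver. Reads of cytochrome P450 paralogs may be shared, so single values of these genes are uncertain.

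Periportal genes gave the other zone for comparison, and all 24 were kept. Their median against naive was -0.10 in the miR-27b, -0.15 in the siRNC and -0.08 in the saline liver, close to that of the pericentral list. At least 2-fold higher than naive was 1 in each hepatectomised liver, Sds, a serine dehydratase of glucose production. At least 2-fold lower were 3 in the miR-27b liver (Cyp2f4, Hal and Apoa4), 2 in the siRNC liver (Cyp2f4 and G6pc) and 4 in the saline liver (Cyp2f4, Hal, Apoa4 and G6pc). Of all genes kept, 3.57% were that much lower in the miR-27b, 3.17% in the siRNC and 3.52% in the saline liver. The shares higher were 7.69% in the miR-27b, 5.55% in the siRNC and 5.51% in the saline liver.

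**Figure D4:**
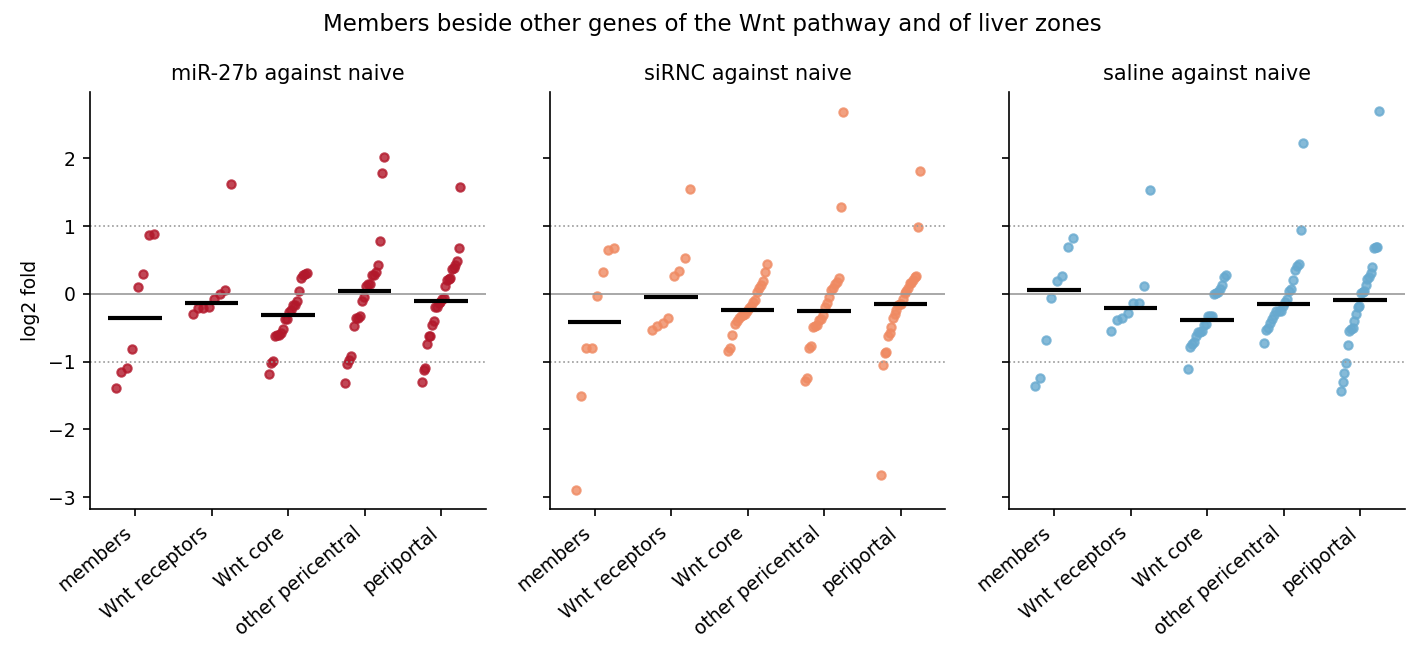
Log2 fold (vertical axis) of each gene kept in 5 groups (the 8 members, 8 Wnt receptors, 20 core genes, 20 other pericentral and 24 periportal genes) in the miR-27b, siRNC and saline livers against the naive liver. Points are genes in order of fold, black bars medians and dotted lines 2-fold. The group medians lie between -0.41 and 0.06, and the lowest member, Tbx3 at -2.89 in the siRNC liver, is below every other gene shown.

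The genes whose 4 values lay nearest to those of Tbx3, by Euclidean distance over the 4 libraries among the 9116 genes kept, were Tubb2a at 0.336, Prc1 at 0.402 and Tubb2b at 0.424. Tubb2a and Tubb2b encode beta-tubulins, closely alike genes whose reads may be shared, and Prc1 a protein of the spindle midzone in dividing cells. Tubb2a had values of 0.05 in the miR-27b, -1.08 in the siRNC and 0 in the saline liver, against 1.55 in the naive liver. Prc1 had values of 0.37 in the miR-27b, -1.65 in the siRNC and 0 in the saline liver, against 1.58 in the naive liver. Of 8 markers of dividing cells, 3 were kept, and they had their highest values in the naive liver too. Mki67, the Ki-67 antigen, had values of 0.13 in the miR-27b, -1.31 in the siRNC and -0.60 in the saline liver, against 0.94 in the naive liver. Ccnb1, which encodes cyclin B1, had 12 reads in the miR-27b, 2 in the siRNC and 6 in the saline liver, against 26 in the naive liver. Ccnb1 passed the filter, a mean of at least 10 reads, only with its naive reads, so its high naive value is partly built in. Aurka, a mitotic kinase, had values of 0.18 in the miR-27b, 0 in the siRNC and -0.31 in the saline liver, against 0.25 in the naive liver. The part of dividing cells in the Tbx3 result was not tested.

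The tissue label was checked on 10 hepatocyte identity genes, all kept and all in the upper level class, with medians against naive of 0.08 in the miR-27b, -0.12 in the siRNC and -0.04 in the saline liver. Other cell types moved with the hepatectomised livers. Of 11 macrophage markers kept of 12, 9 were at least 2-fold higher than naive in the miR-27b, 6 in the siRNC and 9 in the saline liver. Of all genes kept, 7.69% were that much higher in the miR-27b, 5.55% in the siRNC and 5.51% in the saline liver. The medians of the macrophage markers were 1.38 in the miR-27b, 1.0 in the siRNC and 1.25 in the saline liver. The 9 stellate cell and matrix markers kept of 10 had medians of 0.97 in the miR-27b, 2.0 in the siRNC and 0.58 in the saline liver. The 5 erythroid genes kept of 8 had medians of 2.02 in the miR-27b, 1.95 in the siRNC and 2.36 in the saline liver. The 13 endothelial markers kept of 14 had medians of 0.47 in the miR-27b, 0.13 in the siRNC and 0.28 in the saline liver, and 2 of 7 cholangiocyte markers were kept. In bulk tissue, fewer cells of a type and less RNA per cell cannot be told apart, and the part of these cell types in the members' differences was not tested.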

How the data were processed

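Poly(A)-selected liver mRNA was prepared with TruSeq reagents, per the labels' protocols. DESeq (version not stated) and genome build rn5 are named in the submitters' processing notes, and the file header names an NGS RefSeq gene list. The sources used here give no aligner or counter. The deposited values are log2 values, normalized by the authors. Judged from the values, each is the log2 of reads divided by a size factor, with a floor of 1 read, less a baseline per gene near the median library. The size factors recovered were 0.956 for the miR-27b, 1.01 for the siRNC, 1.04 for the saline and 0.977 for the naive library. Total depth per library is unknown.

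Samples were grouped by their source labels. The log2 fold is the difference of 2 deposited values, with no pseudocount, for 6 comparisons, and differences of at least 2-fold were counted. Level classes were inferred from how the stored numbers are rounded in binary (probability at least 0.5), or reads from whole-read ratios of up to 200 reads. The 9116 genes kept were 417 with recovered reads averaging at least 10, 6249 of the lower class (from 16 normalized reads at the baseline) and 2450 of the upper class (from 16 times as many). The lowest probability of 16 or more reads among the members kept was 0.929. Reads of Lgr5 were recovered, and those of the 8 members kept were not. Intervals are exact conditional binomial (Clopper-Pearson) at 95%. They leave out differences between animals, and PCR duplicates make them too narrow. With 16 reads in both libraries the counting SD of a log2 fold is 0.51, and at the start of the upper class 0.13.

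The members and gene lists were chosen with earlier results of these data known. Named genes are all members, up to 4 genes of a list with the largest folds in a comparison, a fixed set of genes of the pathway and zones, and the 3 genes nearest to the widest-ranging member. Some genes this rule names are left out for length. Alternatives were a 1.5-fold rule, a stricter filter (mean of at least 50 reads or the upper class), no filter, a pseudocount of 5 and median centring. Python 3.11.15, numpy 2.4.6, pandas 2.3.3, scipy 1.17.1 and matplotlib 3.10.9 were used, and the scripts were tested on simulated data.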

Additional observations from a re-analysis of the deposited data

How the results depend on the processing

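No paired analysis was possible because each group holds 1 library, and for the same reason no library could be left out. All 168 single-member folds recomputed under alternatives stayed within their counting interval, and none of these folds changed sign. This stability is largely built in. A filter leaves the fold of a gene as it is, which fixed 48 of them with no filter and 24 with the stricter one. Median centring, in 48, shifts all folds of a comparison alike, and the median furthest from 0 was -0.032 (miR-27b against naive). A pseudocount, in the other 48, shrinks a fold without turning its sign. The members' median against naive did turn with the filter, as given below. Counts of members moved more, as they rest on 8 genes. With a 1.5-fold rule, 2 members were higher than naive in the miR-27b (13.8% of all genes), 2 in the siRNC (12% of all genes) and 2 in the saline liver (12.2%), and 4 were lower than naive in the miR-27b (11.7%), 4 in the siRNC (9.36%) and 3 in the saline liver (10%). The stricter filter left 4 members and dropped Axin2, Tbx3, Rhbg and Slc1a2: 1 was at least 2-fold lower than naive in the miR-27b, 0 in the siRNC and 0 in the saline liver. With it, 0 were higher in miR-27b against siRNC, 0 lower in miR-27b against saline and 0 lower in siRNC against saline, and the median against naive turned positive, at 0.19 in the miR-27b and 0.15 in the siRNC liver. With no filter Lgr5, at 4 reads or fewer, was added: 1 member was then higher in siRNC against naive, 1 higher in siRNC against saline and 1 lower in miR-27b against siRNC, and the median against naive was 0 in the miR-27b and -0.027 in the siRNC liver. With a pseudocount of 5, which shrinks folds most for genes placed at the bottom of their class, 2 were lower in miR-27b against naive, since Axin2 was at -0.95, 0 were higher in miR-27b against siRNC, 0 lower in miR-27b against saline and 1 lower in siRNC against saline. Median centring moved none of the counts or medians beyond these limits. Lgr5 is limited by its few reads. Why Znrf3 and 5 of the ligand genes are listed at 0 was not tested, and every comparison lacks replicates.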
